A study of Mus musculus with 15 samples.

Results

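The data described here are gene expression profiles of 4 sorted cell populations of the mouse ventricular-subventricular zone (V-SVZ), the stem cell niche along the lateral ventricles, set against astrocytes sorted from the cortex. The question was which genes differ from cortical astrocytes in all 4 populations, the quiescent as well as the activated ones. A gene was taken when the lowest of the 12 V-SVZ libraries lay above the highest of the 3 cortical ones, or the highest below the lowest. Of 16302 genes with enough counts to test, 551 lay above cortex in this way (3.38%) and 845 below (5.18%). Among 16433 genes with too few counts to test, a further 4 lay above and 39 below, and these are not described. Leaving out 1 CTX library loosens the rule, and the count above was then 799, 749 and 837 without replicates 1, 2 and 3.

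All 15 libraries came from hGFAP::GFP mice, in which a human GFAP promoter drives a green fluorescent reporter, and each pooled males and females. The cortical group, called CTX, held GFP-positive astrocytes, and no further gate is given for it. The V-SVZ groups were GFP-positive and CD24-negative. Those without EGFR were GPB+ (PDGFRβ-positive, CD133-negative) and GCPB+ (positive for both). Those with EGFR and CD133 were GCEPB+, which was PDGFRβ-positive, and GCEPB-, which was PDGFRβ-negative. Each group had 3 libraries, which the labels do not tie to separate animals, so the spread behind a p-value may be technical. Ages are not given in the labels. Tissue and the added surface gates go together in every library, so region and sort cannot be told apart here, nor can a different mix of cells from a different level per cell.

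Astrocytes of the adult brain keep traces of where they arose. Cortical astrocytes descend from the pallium, the dorsal forebrain, where transcription factors such as Emx2 act, while most cells of the lateral V-SVZ wall descend from the ventral forebrain, where Gsx2, the Dlx genes and Six3 act. V-SVZ stem cells resemble astrocytes when quiescent, express EGFR when activated, and give rise to neuroblasts that migrate to the olfactory bulb.

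The libraries held 12466038 to 33665687 counts. The astrocyte genes Slc1a2, Slc1a3, Gja1, Aqp4 and Aldh1l1 were detected in every library, and in CTX their levels ran from 347 CPM (counts scaled to a normalized library total) for the lowest Aldh1l1 library to 12140 CPM for the highest Slc1a3 library. In GCEPB- they were lower, with Aqp4 at 39.0 to 49.2 CPM against 1171 to 1452 CPM in CTX. None of the 5 was past the no-overlap rule. The RNA of the sorting genes followed the gates in part. Pdgfrb averaged 357 CPM in GPB+, 342 CPM in GCPB+ and 2.37 CPM in GCEPB-, but 45.9 CPM in PDGFRβ-positive GCEPB+, below the 183 CPM of CTX. Prom1, which encodes CD133, averaged 28.4 CPM in GPB+, 153 CPM in GCPB+, 66.8 CPM in GCEPB+ and 48.8 CPM in CD133-positive GCEPB-, beside 56.04 CPM in CTX. Egfr averaged 537 CPM in GCEPB+ and 797 CPM in GCEPB-, against 155 to 171 CPM in the other 3 groups. Cd24a, whose product the V-SVZ sorts selected against, averaged 75 ± 18.8 CPM (SD, n = 3) in GCEPB- and 0.0419 ± 0.0725 CPM (SD, n = 3) in CTX.

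The RefSeq promoters of Six3, Igfbp2 and Emx2 are shown to give the sequence at the start of a ventral regulator, the gene furthest below cortex among those named, and a pallial regulator. Six3 encodes a homeodomain factor of the ventral and anterior forebrain, Igfbp2 a secreted protein that binds insulin-like growth factors, and Emx2 a homeodomain factor of the pallium. The stretches run from 250 bases before to 50 bases after the annotated start, on the plus strand of GRCm38.p6, the build that mm10 names, with CG dinucleotides in capitals. They lie at chr17:85620584-85620883 (Six3), chr1:72824230-72824529 (Igfbp2, the first of 2 starts listed) and chr19:59458440-59458739 (Emx2).
Six3: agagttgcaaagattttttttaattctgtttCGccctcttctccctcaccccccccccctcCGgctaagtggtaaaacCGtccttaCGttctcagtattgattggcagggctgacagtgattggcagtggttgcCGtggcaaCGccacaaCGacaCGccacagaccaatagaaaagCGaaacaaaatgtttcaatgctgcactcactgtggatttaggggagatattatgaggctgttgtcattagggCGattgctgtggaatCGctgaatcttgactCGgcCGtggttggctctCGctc
Igfbp2: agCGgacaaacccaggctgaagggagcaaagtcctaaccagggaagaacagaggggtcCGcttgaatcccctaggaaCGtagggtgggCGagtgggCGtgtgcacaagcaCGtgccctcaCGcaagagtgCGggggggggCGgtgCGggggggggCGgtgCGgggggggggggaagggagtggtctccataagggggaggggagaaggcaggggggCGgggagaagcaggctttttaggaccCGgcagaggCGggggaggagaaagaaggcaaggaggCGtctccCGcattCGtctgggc
Emx2: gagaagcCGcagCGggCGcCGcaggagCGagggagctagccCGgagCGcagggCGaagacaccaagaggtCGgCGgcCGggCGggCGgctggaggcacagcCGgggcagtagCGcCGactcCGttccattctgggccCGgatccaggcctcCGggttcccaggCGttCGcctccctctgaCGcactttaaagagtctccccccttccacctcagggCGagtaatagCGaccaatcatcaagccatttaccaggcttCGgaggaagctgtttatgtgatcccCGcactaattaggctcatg
The counts of CG dinucleotides were 14 for Six3, 18 for Igfbp2 and 26 for Emx2. The median over promoters of all tested genes with one listed was 20.

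Six3 was nearly absent from cortical astrocytes and present in every V-SVZ library. CTX replicates 1 to 3 held 0.143, 0.0768 and 0.335 CPM. GPB+ held 50.6, 31.3 and 30.7 CPM, GCPB+ 29.6, 20.8 and 23.5 CPM, GCEPB+ 23.1, 19.1 and 12.7 CPM, and GCEPB- 14.6, 15 and 12.8 CPM. The lowest V-SVZ library was thus far above the highest CTX library, and every GPB+ library lay above every GCPB+ library, while GCPB+ and GCEPB+ overlapped, as did GCEPB+ and GCEPB-. Against CTX the log2 fold change ran from 7.45 ± 0.45 (SE) in GPB+ through 6.85 ± 0.45 (GCPB+) and 6.42 ± 0.44 (GCEPB+) down to 6.04 ± 0.44 (GCEPB-). Six3 also differed among the V-SVZ groups (adjusted p = 0.00483, edgeR quasi-likelihood test over all 4 groups). On the deposited FPKM scale, which divides by length, Six3 averaged 7.60 ± 2.27 in GPB+ and 3.54 ± 0.496 in GCEPB- (SD, n = 3). The antisense transcript Six3os1, whose gene lies beside Six3, was also past the rule, at 0.0419 to 0.286 CPM in CTX and 10.3 to 71.5 CPM in the V-SVZ. The library kit does not mark strand, so reads from the 2 genes cannot be told apart where they overlap.

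Igfbp2 was the converse. CTX replicates held 353, 292 and 417 CPM, GPB+ 0.802, 0.144 and 1.24 CPM, and GCPB+ 0.295, 0.0820 and 0.712 CPM. GCEPB+ held 0, 0.0485 and 0.259 CPM and GCEPB- 0.0884, 0.0660 and 0.161 CPM. Every V-SVZ library was far below each CTX library. Several held fewer than 3 counts, while GPB+ replicates 1 and 3 held 16 and 28 counts and GCPB+ replicate 3 held 21. The log2 fold change was -8.81 ± 0.54 (SE) in GPB+ and -9.71 ± 0.57 in GCPB+. GCEPB+ and GCEPB- held 6 and 7 counts in all, too few for their fitted folds to be read closely. On the FPKM scale CTX averaged 221 ± 37.3 (SD, n = 3), and V-SVZ group means ran from 0.137 to 0.663.

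**Figure D1:**
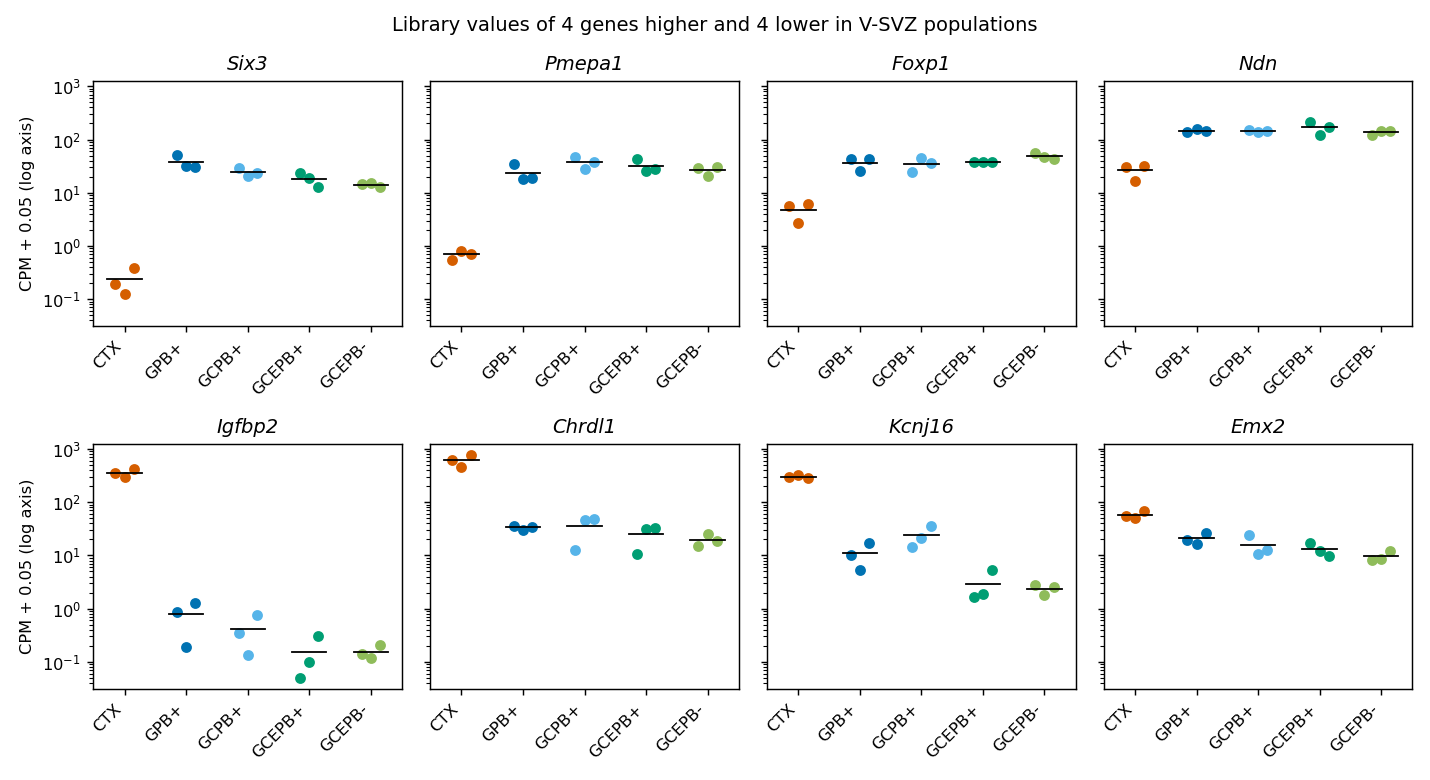
Level of 8 genes in each library, as CPM + 0.05 on a log axis, with points for the 3 libraries of a group and a bar for their mean. The upper row holds 4 genes above CTX in all 12 V-SVZ libraries (Six3 at 12.7 to 50.6 CPM there, at most 0.335 CPM in CTX), and the lower row 4 genes below it (Igfbp2 at most 1.24 CPM, at least 292 CPM in CTX).

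Among genes above cortex in all V-SVZ libraries, 12 were named by the size of their smallest group difference, at a mean of at least 20 CPM in the lowest V-SVZ group. They encode transcription regulators (Mn1, Foxp1, Zfhx4), a growth suppressor of the imprinted Prader-Willi region (Ndn), an inhibitor of TGF-beta signalling (Pmepa1), an IGF binding protein (Igfbp5), matrix proteins (Bgn, Mfap2) and membrane proteins (Tmem98, Sez6, Kcne1l), with the synuclein partner Sncaip. Mn1, a transcriptional coregulator, led the group: CTX held 1.29, 1.84 and 0.712 CPM, GPB+ 80.9, 51.5 and 74.0, GCPB+ 63.4, 46.9 and 50.1, GCEPB+ 133, 122 and 124, and GCEPB- 197, 110 and 155 CPM. Its log2 fold change ran from 5.45 ± 0.34 in GCPB+ to 6.97 ± 0.35 in GCEPB- (SE). Mn1 was therefore high in quiescent and activated groups alike, and higher in the EGFR-positive ones.

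For 4 of the 12 the test among V-SVZ groups did not pass. Pmepa1 was at 0.501, 0.768 and 0.670 CPM in CTX, 34.5, 18.2 and 18.5 CPM in GPB+, 46.0, 28.2 and 37.7 CPM in GCPB+, 42.9, 25 and 28.2 CPM in GCEPB+, and 29.7, 20.6 and 30.7 CPM in GCEPB-. Its 4 log2 fold changes lay between 5.18 ± 0.39 and 5.84 ± 0.40 (SE), and the test among V-SVZ groups gave adjusted p = 0.268 (edgeR quasi-likelihood test). Foxp1, a forkhead factor of striatal and other neurons, was at 5.51, 2.69 and 5.99 CPM in CTX and between 24.7 and 56.9 CPM in the V-SVZ, with fold changes of 2.89 to 3.36 (log2) and adjusted p = 0.444 among groups. Igfbp5 was at 10.01, 10.1 and 6.87 CPM in CTX and 29.6 to 105 CPM in the V-SVZ (adjusted p = 0.434 among groups, the same edgeR test). Ndn was at 30.0, 16.6 and 32.2 CPM in CTX and 121 to 217 CPM in the V-SVZ (adjusted p = 0.679 among groups, the same edgeR test). A p that misses the threshold does not show that the groups are alike. The fitted fold changes spanned 0.65 (Pmepa1), 0.47 (Foxp1), 0.59 (Igfbp5) and 0.30 (Ndn) on the log2 scale, and with their SEs larger differences are possible.

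The other 8 differed among the V-SVZ groups, and all except Zfhx4 lay further above cortex where EGFR was carried. Mfap2, a microfibril protein, was at 6.51, 4.15 and 7.58 CPM in CTX, 60.3, 52.4 and 39.7 CPM in GPB+, 73.1, 35.8 and 36.0 CPM in GCPB+, 603, 403 and 289 CPM in GCEPB+, and 353, 375 and 344 CPM in GCEPB-. Its log2 fold change was 2.98 ± 0.33 in GCPB+ and 6.14 ± 0.38 in GCEPB+ (SE; adjusted p = 1.08e-07 among groups, edgeR quasi-likelihood test). Sncaip was also further above CTX in both EGFR-positive groups, with 2.71 ± 0.35 in GCPB+ and 5.56 ± 0.38 in GCEPB- (SE). Sez6 (4.32 to 6.53), Bgn (4.38 to 5.68), Tmem98 (2.84 to 3.95) and Kcne1l (3.95 to 4.90) also had their 2 larger log2 fold changes in the EGFR-positive groups. Zfhx4, a large zinc finger homeodomain factor, did not: its largest value was 3.77 ± 0.28 in GPB+ and its smallest 2.50 ± 0.27 in GCEPB- (SE).

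Of the 12 named genes below cortex, 1 was Igfbp2 and the rest encode adhesion and guidance proteins (Chl1, Cntnap2), a neuritin (Nrn1), receptors (Lgr6, Vldlr), a BMP antagonist that astrocytes release (Chrdl1), potassium channel subunits (Kcnj16, Kcng4), a sterol hydroxylase (Cyp27a1), a tyrosine kinase (Lyn) and the estrogen-regulated Greb1. Chrdl1 was at 619, 465 and 775 CPM in CTX, 36.2, 30.2 and 34.6 CPM in GPB+, 12.5, 45.6 and 47.9 CPM in GCPB+, 10.4, 32.0 and 33.1 CPM in GCEPB+, and 15.3, 25.5 and 18.6 CPM in GCEPB-. Its log2 fold changes were -4.14 ± 0.48 to -4.97 ± 0.50 (SE), with adjusted p = 0.316 among groups (edgeR quasi-likelihood test). Chrdl1 was thus below CTX in all 4 groups, whose libraries overlapped.

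Kcnj16, a subunit of the astrocytic inward rectifier, was at 292, 321 and 279 CPM in CTX. GPB+ held 10.3, 5.33 and 17.1 CPM, GCPB+ 14.5, 21.5 and 35.2 CPM, GCEPB+ 1.58, 1.80 and 5.23 CPM, and GCEPB- 2.78, 1.72 and 2.46 CPM. All were below CTX, and the EGFR-positive groups were lower still: the log2 fold change was -3.65 ± 0.45 in GCPB+ and -6.98 ± 0.54 in GCEPB- (SE). Greb1 ran the other way, at 23.4 to 45.1 CPM in CTX, 0.0368 to 0.825 CPM in the first 3 V-SVZ groups and 1.72, 3.10 and 1.77 CPM in GCEPB-.

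Several of the 12 were near the detection floor in the V-SVZ. Nrn1 was at 38.5, 22.8 and 19.5 CPM in CTX and at most 0.483 CPM elsewhere, and Lgr6, an R-spondin receptor, was at 36.4, 28.6 and 25.2 CPM in CTX and at most 1.02 CPM elsewhere. Chl1 was at 26.8, 33.2 and 65.6 CPM in CTX and at most 3.31 CPM elsewhere. Cyp27a1 (41.9, 37.2 and 42.6 CPM in CTX) and Kcng4 (24.9, 25.7 and 26.8 CPM) had no count in any GCEPB- library, which makes them at least 847-fold and 539-fold lower there against a floor of 3 counts over the group. Cntnap2 was at 49.6 to 82.7 CPM in CTX and 0.0805 to 3.11 CPM in the V-SVZ, and Vldlr at 40.4 to 65.9 CPM and 0.0485 to 5.51 CPM. Lyn, also a gene of microglia, was at 46.1, 9.75 and 40.9 CPM in CTX and 0 to 3.74 CPM elsewhere; the summed level of 10 microglia markers was 82.5 to 100 CPM in CTX and 8.98 to 118 CPM in the V-SVZ, and its part in the Lyn difference was not tested. All 24 named genes also passed the adjusted threshold of 0.05 in each of the 4 separate comparisons, but they were chosen on the same libraries, so this is a description.

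**Figure D2:**
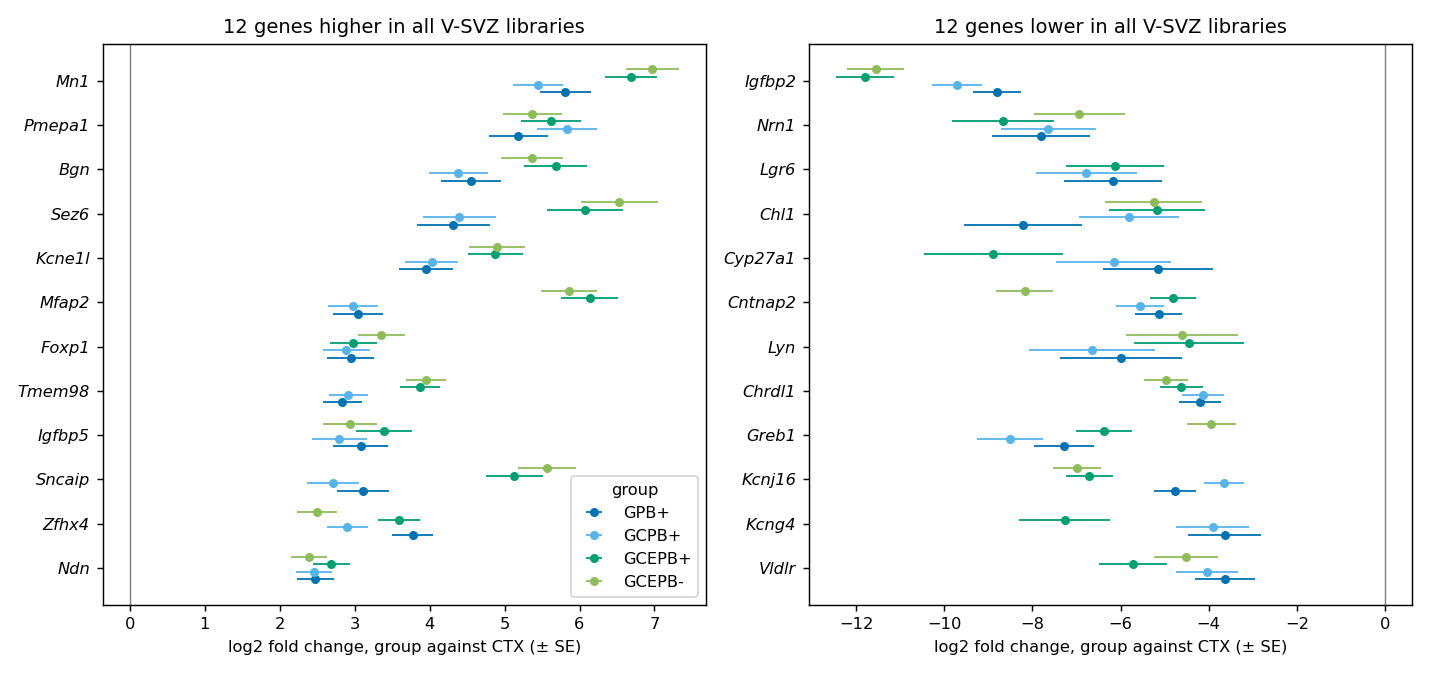
Log2 fold change of each V-SVZ group against CTX with its SE, for the 12 named genes above cortex (left) and the 12 below (right). The 3 groups with 3 or fewer counts (Lgr6, Cyp27a1 and Kcng4 in GCEPB-) are left out, and folds near the floor depend on the prior count; the 4 points of Ndn lie within 0.30 of each other and those of Mfap2 within 3.16.

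Regional regulators lay on both sides of cortex, and most were past the no-overlap rule in neither direction. From a list of ventral and septal forebrain regulators, 30 genes were tested, of which 8 were above and 3 below cortex in all V-SVZ libraries. Of all tested genes 3.38% were above and 5.18% below. The list's median log2 fold change of the mean of the 4 groups was 0.65 against 0.01 over all genes. In the fit of that mean, 13 of the 30 were higher (16.5% of all genes) and 6 lower (19.1% of all genes). That fit called 2682 genes higher and 3111 lower, and with the 12 V-SVZ libraries as 1 group 287 and 307. Dlx2, a homeodomain factor of ventral progenitors and interneurons, had no count in CTX. GPB+ held 4.46, 3.38 and 2.87 CPM of it, GCPB+ 7.66, 0.984 and 1.02 CPM, GCEPB+ 22.2, 9.22 and 5.64 CPM, and GCEPB- 57.2, 58.3 and 26.9 CPM, so that even GCPB+ was at least 54.7-fold higher than the CTX floor of 3 counts over the group. Gsx2, which acts upstream of the Dlx genes in the ventral forebrain, was at 0.143, 0 and 0 CPM in CTX, 1.55 to 4.61 CPM in the 2 EGFR-negative groups, and 10.8 to 29.8 CPM in the 2 EGFR-positive ones. Vax1, a ventral homeodomain factor, had no count in CTX and 0.0820 to 2.30 CPM in the V-SVZ, at least 3.63-fold higher in GCPB+. Its lowest V-SVZ library, GCPB+ replicate 2, held 1 count, under that library's floor of 0.246 CPM. On the FPKM scale Vax1 averaged 0.00899 ± 0.0134 in CTX and 0.0769 ± 0.0638 in GCPB+ (SD, n = 3). Summed neuroblast markers, which share Dlx5, Dlx6, Sp8, Sp9 and Pbx3 with the ventral list, were 76.5 to 110 CPM in CTX, 121 to 171 CPM in GPB+, 123 to 157 CPM in GCPB+, 1126 to 1812 CPM in GCEPB+ and 2369 to 2934 CPM in GCEPB-; their part in the Dlx2 and Gsx2 levels was not tested.

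The 3 ventral and septal regulators below cortex, named here after their values were seen, were the zinc finger factors Zic1, Zic2 and Zic5. Zic2 was at 14.9, 14.1 and 14.5 CPM in CTX and 0 to 1.25 CPM in the V-SVZ. Zic1 was at 6.22, 2.76 and 10.6 CPM in CTX and 0.121 to 1.05 CPM elsewhere, and Zic5 at 16.8, 20.3 and 13.4 CPM in CTX and 1.92 to 8.08 CPM elsewhere. Zic genes are also expressed in the meninges. Summed fibroblast and meningeal markers were 95.3 to 179 CPM in CTX, 128 to 193 CPM in the EGFR-negative V-SVZ groups and 14.9 to 48.2 CPM in the EGFR-positive ones, and their part was not tested.

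Of 22 tested pallial regulators, 5 were below and 1 above cortex, against 5.18% and 3.38% of all tested genes. The median log2 fold change of the list was -0.60. In the fit of the mean 8 were lower and 3 higher, against 19.1% and 16.5% of all genes. Emx2 was at 55.1, 50.4 and 69.7 CPM in CTX, 19.8, 16.6 and 26.9 CPM in GPB+, 23.9, 10.4 and 12.5 CPM in GCPB+, 16.9, 12.2 and 9.68 CPM in GCEPB+, and 8.09, 8.45 and 12 CPM in GCEPB-. It was lower but not absent in V-SVZ libraries, with log2 fold changes from -1.47 ± 0.32 in GPB+ to -2.62 ± 0.34 in GCEPB- (SE). The neighbouring antisense Emx2os was at 28.4 to 31.8 CPM in CTX and 1.12 to 22.0 CPM in the V-SVZ, again without strand. Dmrta2, a factor of the cortical hem and dorsal progenitors, was at 10.2, 12.3 and 11.4 CPM in CTX and 0 to 3.21 CPM in the V-SVZ. Lmo3, a LIM-only cofactor, was the exception, at 0.998 to 4.22 CPM in CTX and 6.26 to 27.0 CPM in the V-SVZ.

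**Figure D3:**
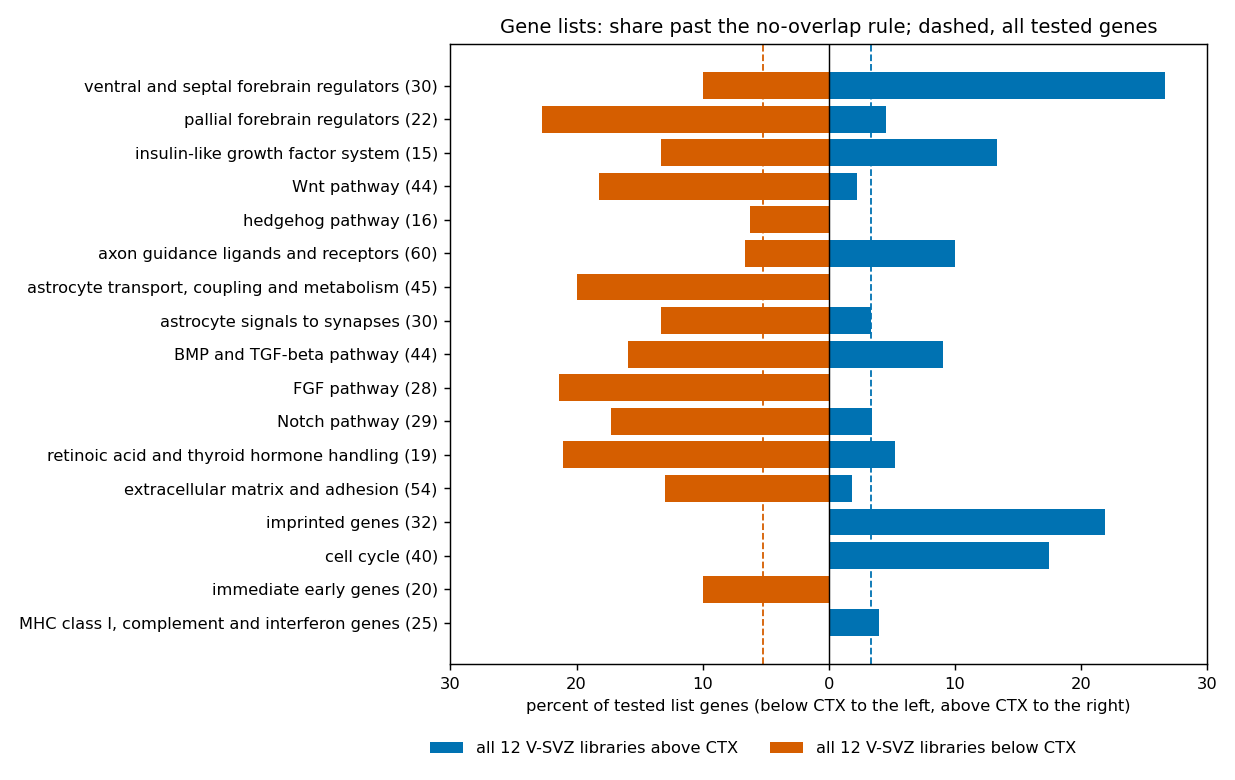
Share of each gene list's tested members (their number in brackets) that lay above cortex in all 12 V-SVZ libraries, to the right, or below, to the left, with dashed lines at the shares of all tested genes (3.38% and 5.18%). Ventral regulators reach 8 of 30 above and pallial regulators 5 of 22 below.

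In the insulin-like growth factor system 2 of 15 tested genes were above and 2 below, against 3.38% and 5.18% of all tested genes. In the fit of the mean 3 were higher and 2 lower, against 16.5% and 19.1% of all genes. The median log2 fold change was 0.12. Beside Igfbp2 and Igfbp5, which moved oppositely, the receptor Igf1r was at 32.3, 36.8 and 35.1 CPM in CTX, 45.8 to 102 CPM in the EGFR-negative groups and 138 to 161 CPM in the EGFR-positive ones. Htra1, a protease that cleaves IGF binding proteins, was at 2437 to 3302 CPM in CTX, at 565 to 1725 CPM in the EGFR-negative groups, and at 10.6 to 124 CPM in the EGFR-positive ones.

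Signalling genes past the rule lay on both sides of cortex, beside 5.18% of all tested genes below and 3.38% above. Of 44 Wnt pathway genes 8 were below and 1 above, of 28 FGF pathway genes 6 and 0, of 29 Notch pathway genes 5 and 1, and of 44 BMP and TGF-beta genes 7 and 4. In the fit of the mean the counts lower and higher were 16 and 5 for Wnt, 15 and 0 for FGF, 10 and 9 for Notch, and 20 and 11 for BMP and TGF-beta. That fit called 19.1% of all tested genes lower and 16.5% higher. Fzd9, a Wnt receptor, was at 137, 86.1 and 75.7 CPM in CTX and 0.414 to 21.8 CPM in the V-SVZ, and Lef1, the nuclear partner of beta-catenin, at 19.7, 11.7 and 16.4 CPM in CTX and 0.902 to 5.05 CPM in the V-SVZ. Etv4, a transcription factor that FGF signalling induces, was at 186, 170 and 134 CPM in CTX, 28.9 to 53.4 CPM in the EGFR-negative groups and 9.10 to 19.8 CPM in the EGFR-positive ones. The Notch target Hes1 was at 65.6, 42.4 and 50 CPM in CTX and 9.64 to 26.3 CPM in the V-SVZ. Hhip, which binds hedgehog ligands, was the only one of 16 hedgehog genes past the rule, at 32.0, 53.4 and 19.1 CPM in CTX and 0 to 4.35 CPM in the V-SVZ, with log2 fold changes between -3.43 ± 0.83 and -3.99 ± 0.85 (SE).

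Guidance genes went both ways, 6 above and 4 below of 60, beside 3.38% of all tested genes above and 5.18% below; the share below, 4 of 60, was near that of all genes. Slit2, a repellent of migrating neuroblasts, was at 0.0715, 0 and 0.0837 CPM in CTX, 1.72 to 8.39 CPM in the EGFR-negative groups, and 39.8 to 59.7 CPM in the EGFR-positive ones. The ephrin receptor Epha3 was at 0 to 0.0837 CPM in CTX, 0.884 to 6.34 CPM in the EGFR-negative groups and 24.03 to 48.2 CPM in the EGFR-positive ones. Nrp2, a semaphorin receptor, was lower at a like level throughout, 7.91 to 9.84 CPM in CTX and 0.530 to 1.73 CPM in the V-SVZ.

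Genes of mature astrocyte function were mostly below cortex on average, but few were so in every library. Of 45 transport, coupling and metabolic genes 9 were below and none above, against 5.18% and 3.38% of all tested genes. Their median log2 fold change was -1.56. In the fit of the mean 39 were lower and 3 higher, against 19.1% and 16.5% of all genes. In GPB+, Aqp4 (1093 to 1268 CPM) and Slc1a3 (10360 to 12210 CPM) overlapped CTX (1171 to 1452 and 10140 to 12140 CPM). Slc1a2 (7881 to 9242 CPM in the EGFR-negative groups, 5512 to 6947 CPM in CTX) and Gja1 (10840 to 15840 CPM, 8031 to 9521 CPM in CTX) lay wholly above CTX there, and below it in both EGFR-positive groups. Slc25a18, a mitochondrial glutamate carrier, stood apart from this pattern, at 835, 554 and 567 CPM in CTX and 41.4 to 93.7 CPM in all 12 V-SVZ libraries, with 4 log2 fold changes from -3.09 ± 0.23 to -3.64 ± 0.24 (SE). Thbs4, of the thrombospondin family that astrocytes release, was the 1 gene above cortex in its list of 30, at 0, 0 and 0.209 CPM in CTX, 64.0 to 165 CPM in the EGFR-negative groups, 46.9 to 76.2 CPM in GCEPB+ and 13.9 to 18.4 CPM in GCEPB-. In that list Chrdl1, Eogt, Bdnf and Mertk were below, against 5.18% of all tested genes. The 1 of 30 above was near the 3.38% of all tested genes.

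In 3 other lists, those past the rule were 7 of 54 matrix and adhesion genes below and 1 above, 2 of 20 immediate early genes below, and 1 of 25 immune genes (Serping1) above. Of all tested genes 5.18% were below and 3.38% above. The 1 of 25 was near that share above, and the 1 of 54 was under it.

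Of 32 imprinted genes 7 were above cortex and none below, against 3.38% and 5.18% of all tested genes. In the fit of the mean 15 were higher and 2 lower, against 16.5% and 19.1% of all genes. The median log2 fold change was 0.90. Grb10, an adaptor that dampens insulin and IGF receptor signalling, had no count in CTX, 0.368 to 4.46 CPM in the EGFR-negative groups and 19.5 to 50.1 CPM in the EGFR-positive ones, at least 34.6-fold higher than the floor in GCPB+. Mirg, a noncoding transcript of the Dlk1-Dio3 region, and Snrpn, of the same imprinted region as Ndn, also had no count in CTX and stood at 0.0808 to 1.86 CPM and 0.0737 to 3.30 CPM in the V-SVZ. Their lowest V-SVZ libraries held 2 counts each (Mirg in GCEPB+ replicate 1, Snrpn in GCPB+ replicate 1). On the deposited FPKM scale Snrpn was detected in CTX (mean 0.519 ± 0.506, SD, n = 3) and was not above it in GPB+ (0.383 ± 0.133) or GCPB+ (0.382 ± 0.260), so its place among the genes above cortex holds for the counts alone. Zdbf2 was at 0 to 0.501 CPM in CTX and 1.47 to 10.6 CPM elsewhere.

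Cell cycle genes passed the rule in 7 of 40 cases, all above, against 3.38% of all tested genes above. The sizes were set by the activated groups. Mcm6, a subunit of the replicative helicase, was at 1.38 to 2.53 CPM in CTX, 8.79 to 14.6 CPM in the EGFR-negative groups and 218 to 562 CPM in the EGFR-positive ones. Its log2 fold change was 2.65 ± 0.28 in GCPB+ and 8.23 ± 0.33 in GCEPB- (SE). Cdk1 was at 0 to 0.154 CPM in CTX and at 0.551 to 2.92 CPM in the EGFR-negative groups.

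Variation among the 4 V-SVZ groups was common among these genes. Of the 551 above cortex, 355 (64.4%) also differed among the V-SVZ groups at an adjusted p under 0.05, and of the 845 below, 516 (61.1%), against 49.2% of all tested genes. The 4 log2 fold changes lay within 1 of each other for 223 (40.5%) of the genes above and 238 (28.2%) of those below, against 37% of all. Both conditions, a span within 1 and no passed difference, held for 151 (27.4%) and 191 (22.6%), against 30.3% of all. In 397 genes above (72.1%) both EGFR-positive group means exceeded both EGFR-negative ones, against 39.2% of all tested genes, and in 607 of the genes below (71.8%) they were lower, against 34.6%. Most genes past the rule lay further from cortex in both EGFR-positive groups, and the genes that met both conditions on like size were the smaller part. The genes were chosen on these same values, and the EGFR-positive groups differed from CTX in many more genes. The rule itself can thus raise these shares over those of all tested genes, so they are a description.

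**Figure D4:**
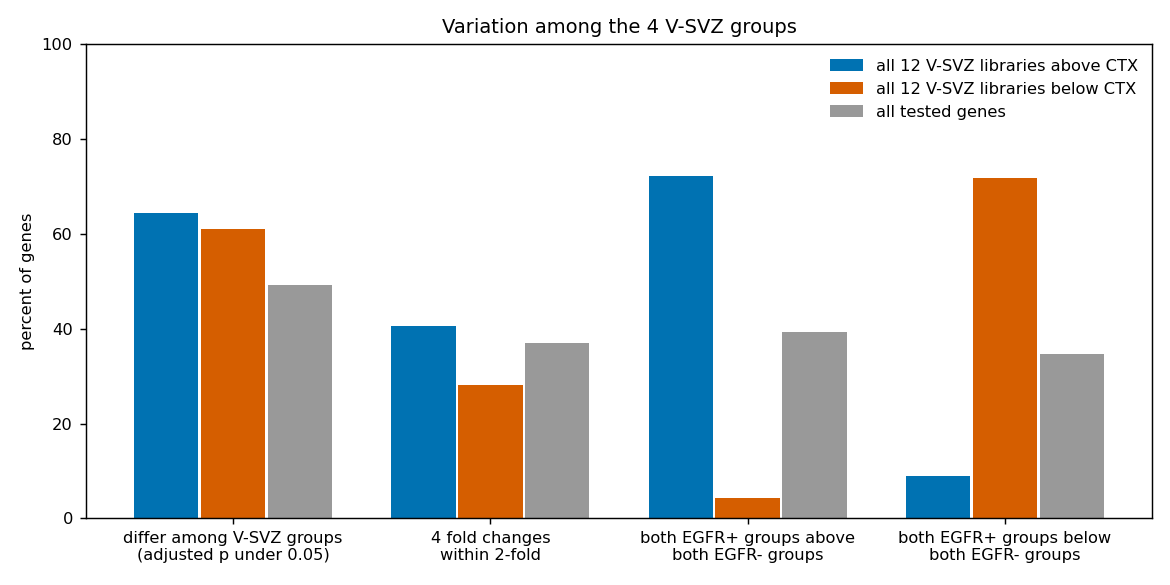
Percent of genes above CTX in all V-SVZ libraries, below it, and of all tested genes that meet each of 4 descriptions of the V-SVZ groups. The share with both EGFR-positive groups further from cortex was 72.1% above and 71.8% below.

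Each group taken alone against CTX gave very different numbers of passed genes: 658 higher (4.04%) and 440 lower (2.7%) in GPB+, 681 (4.18%) and 415 (2.55%) in GCPB+, 3522 (21.6%) and 3310 (20.3%) in GCEPB+, and 4093 (25.1%) and 4268 (26.2%) in GCEPB-. Genes that passed in all 4 numbered 287 higher (1.76%) and 185 lower (1.13%). Without CTX replicate 3 the first count was 173, and the second ran from 100 without CTX replicate 1 to 123 when any of 6 libraries was left out (CTX replicates 1, 2 and 3, GPB+ replicate 3, GCPB+ replicates 2 and 3). Of the genes past the no-overlap rule, 260 above and 182 below were among them. The 4 comparisons share the CTX libraries. At the edge of the rule, Zbtb14 was just inside, with 19.06 CPM in its lowest V-SVZ library and 19.02 CPM in its highest CTX library, and Prelid1 just outside, with 40.7 CPM in both.

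Marker lists of other cell types were followed beside these results. Ependymal and motile cilia markers summed to 186 to 315 CPM in CTX. GPB+ held 397 to 510 CPM, GCPB+ 445 to 639 CPM and GCEPB- 322 to 335 CPM, while GCEPB+ (254 to 306 CPM) lay within the CTX range. Of these 24 markers 4 (Rsph1, Tekt1, Spag16 and Cfap54) were above cortex in all libraries, against 3.38% of all tested genes. In the fit of the mean 12 were higher and 3 lower, against 16.5% and 19.1% of all genes. Oligodendrocyte progenitor markers summed to 238 to 327 CPM in CTX and 60.7 to 192 CPM in the V-SVZ. Of 17 tested, 1 (Olig1) was below cortex in all libraries, near the 5.18% of all tested genes. Olig1 was at 156 to 237 CPM in CTX and 9.73 to 58.0 CPM elsewhere. Endothelial markers summed to 167 to 208 CPM in CTX and 46.4 to 118 CPM in the V-SVZ. Mature neuron markers summed to 69.9 to 84.0 CPM and 50.2 to 76.1 CPM. Past the rule above cortex were 4 of 20 neuroblast, 1 of 13 mature neuron and 1 of 7 fibroblast and meningeal markers. Below it were 2 of 13 mature neuron, 2 of 14 endothelial, 1 of 7 pericyte and 1 of 7 fibroblast and meningeal markers. Of all tested genes 3.38% were above and 5.18% below. No mature oligodendrocyte, microglia or choroid plexus marker was past the rule. Mature oligodendrocyte markers (279 to 879 CPM in CTX) overlapped CTX in GPB+ (725 to 1206 CPM) and GCEPB+ (327 to 1407 CPM), lay wholly above it in GCPB+ (1671 to 2361 CPM) and wholly below it in GCEPB- (146 to 214 CPM). Choroid plexus markers (15.7 to 43.2 CPM in CTX) reached 203 CPM in GCPB+. The part of these cells in the differences was not tested.

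**Figure D5:**
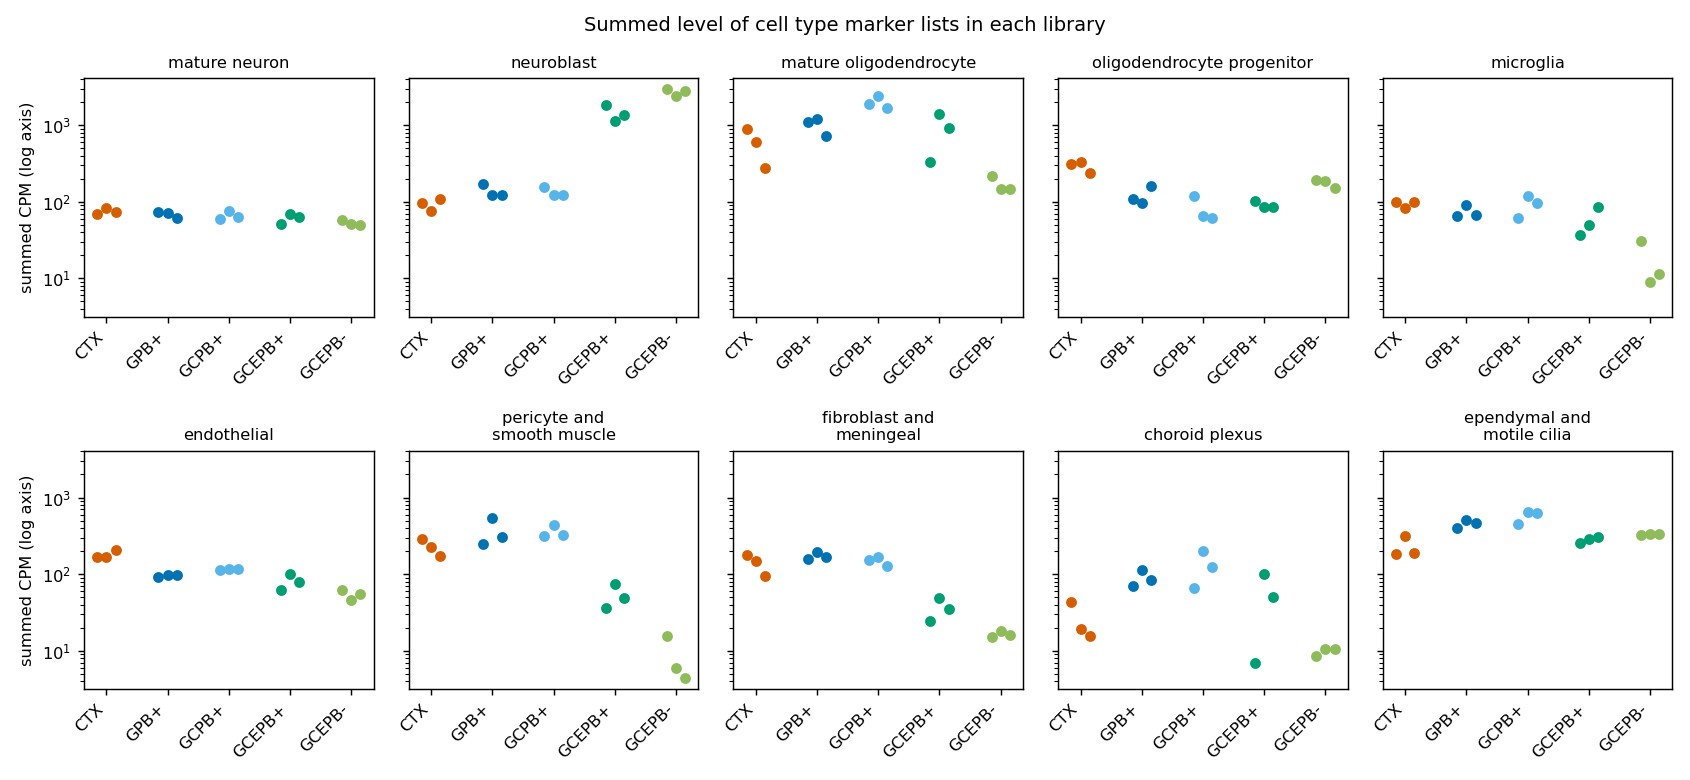
Summed CPM of each cell type marker list in every library, on a log axis. Neuroblast markers stand at 76.5 to 110 CPM in CTX and 2369 to 2934 CPM in GCEPB-, and endothelial markers at 167 to 208 CPM in CTX and at most 118 CPM in the V-SVZ.

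Genes past the rule lay on every autosome and on chromosome X. The share above cortex was highest on chromosome X, 29 of 551 tested genes there (5.26%), and lowest on chromosome 16 (1.94%). Of 547 genes above cortex with a single position, 44 (8.04%) lay next to another such gene, in 22 pairs. Of 838 below, 140 (16.7%) lay in 66 runs of at most 3. The share that gene order alone would give was not worked out. Without strand, neighbours that overlap, such as an antisense gene and its partner, can share reads. Promoters were listed for 417 genes above and 601 below. Their median CG count was 21 and 20, against 20 for 11059 promoters of all tested genes. The homeodomain motif TAATTA, searched on both strands (it is its own reverse complement), was in 2.40% and 2.50% of them, against 2.48% of all, and CCAAT in 42.2% and 36.1%, against 38.8%. A match in these windows is a description and not a bound site. Promoters with 5 or fewer CG dinucleotides made up 6.95% of those above, against 11.5% of all.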

How the data were processed

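Per the labels' protocols, polyadenylated RNA of sorted cells was amplified (ultra-low-input kit) and read in pairs of 100 bases. The kit marks neither strand nor molecule, so a floor reflects counting error alone. Tools named in the submitters' processing notes are TopHat2 2.1, HTSeq, Cufflinks and cutadapt, with mm10. The annotation and counting settings are not given in the sources used here, so genes with near-identical copies are uncertain.

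The authors deposited unnormalized counts per gene symbol and FPKM values (fragments scaled to length and library size by the authors). Of the count rows, 28 named no gene (27 dates and 1 unknown, 0.184% to 0.323% of counts) and were left out. Repeated symbols (66 rows) were kept apart.

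All 15 libraries were fitted in edgeR 4.0.16 (R 4.3.3; TMM factors of 0.825 to 1.22, filterByExpr, quasi-likelihood test, 5 groups, no covariate), with Benjamini-Hochberg adjustment over 16302 genes and a threshold of 0.05. An SE is the size of the log2 fold change divided by the root of F, and is unreliable near the floor (3 counts, 0.102 to 0.246 CPM per library). The step was tested on simulated counts. Named were Six3 and Igfbp2, the 12 highest-ranked genes above and 12 below by their smallest group difference, and up to 4 members of each of 27 lists, of which some are left out. Members, rule and lists were chosen with earlier results of these data known. Of 791 list genes, 787 were in the table. List results not given in the text are drawn in the plot of list shares, which leaves out the cell type marker lists. Promoters are from RefSeq GRCm38.p6. Alternatives used DESeq2 1.42.0, limma 3.58.1 on log2(FPKM + 1), other scalings and filters, a replicate block, and leaving out each library.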

Additional observations from a re-analysis of the deposited data

Results flagged for a closer look

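The difference from cortex varied among the 4 V-SVZ groups, by the edgeR quasi-likelihood test over the groups, for 15 of the 25 genes named individually. Above cortex, adjusted p was 0.00483 for Six3, 0.000229 for Mn1, 0.00729 for Bgn, 0.000151 for Sez6, 0.0186 for Kcne1l, 1.08e-07 for Mfap2, 0.000559 for Tmem98, 1.28e-06 for Sncaip and 0.000996 for Zfhx4. Below cortex it was 0.00987 for Igfbp2, 0.0409 for Cyp27a1, 0.00124 for Cntnap2, 4.1e-05 for Greb1, 1.37e-05 for Kcnj16 and 0.000579 for Kcng4. Some of these rest on few counts. Cyp27a1 held 0, 51 and 0 counts in GPB+, so its level there rests on 1 library. Igfbp2 held 0 to 5 counts per library in the EGFR-positive groups. Of all tested genes 49.2% passed the same test.

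Among 27 rows whose symbol had been turned into a date, which enter no comparison, 2 had all 12 V-SVZ libraries above CTX and 2 had all 12 below.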

How the results depend on the processing

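Asking for a gap of 1.5 times between the nearest libraries left 162 genes above and 221 below cortex, in place of 551 and 845. Genes lower in each group, 185 in all, numbered 280 with CTX and 1 group at a time, 295 with DESeq2, 316 with limma on log2(FPKM + 1) and 475 with voom; genes higher in each, 287, numbered 191 with 1 group at a time. With the 12 V-SVZ libraries as 1 group the mean comparison gave 287 higher and 307 lower, in place of 2682 and 3111. Leaving out each library gave 560 to 837 genes above (837 without CTX replicate 3), 866 to 1167 below, 1988 to 2770 higher and 2447 to 3236 lower on average, 173 to 311 higher in each group (173 without CTX replicate 3), 100 to 221 lower in each (100 without CTX replicate 1, 116 without CTX replicate 2, 103 without CTX replicate 3, 123 without GPB+ replicate 3, 109 without GCPB+ replicate 2 and 121 without GCPB+ replicate 3), and 7274 to 8172 that differed among groups. Leaving out a library gives the no-overlap rule fewer libraries to meet, which loosens it. The causes of the other shifts were not tested. No scaling factor moved the median log2 fold change of all genes from 0.01 to 0.14 and the share of passed genes that were higher from 46.3% to 55.9%. Deviations from the group mean were correlated across genes between V-SVZ and CTX libraries. Same-numbered pairs gave 0.0304 to 0.174, positive in all 12 and over 0.1 in 4, and different-numbered pairs -0.172 to 0.0708. The main fit took no pairing from the numbers, and whether same-numbered libraries shared an effect was not tested. The replicate block gave 796 genes above, 1029 below, 2915 and 3439 on average, 347 and 252 in each group and 8597 among groups. Of 93 named genes under 26 alternatives, 28 missed the threshold at least once where the alternative gave a value. None changed direction, but all were past the no-overlap rule on these same libraries. A change of direction was therefore hardly possible, and its absence is no check. Of 1309 genes past the rule by counts and 1244 by FPKM in the shared symbols, 1030 were the same.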
